A study of Arabidopsis thaliana with 24 samples.

Results

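Cells of the root meristem of Arabidopsis thaliana, ecotype Col-0, were protoplasted, sorted on how strongly they fluoresced from a GFP reporter and profiled by RNA sequencing in 3 lines. The genes described here are those whose RNA was most enriched in the TMO5 line, whose cells are labelled as meristematic xylem of the root, over the SPT and PUB25 lines, whose cells are labelled as root meristem. Each line was sorted into Proximal, Medial and Distal populations, with 2 libraries per zone in the TMO5 line and 3 per zone in the SPT and PUB25 lines, 24 libraries and 9 groups in all. The labels name the line as a strain and give no age of the plants, no number of plants per library, no promoter behind a reporter and no reporter intensity for a zone, so Proximal, Medial and Distal are used as names only. Levels are FPKM, the number of fragments divided by transcript length and by library size, deposited by the authors as 1 pooled value per gene, line and zone. No error, n or replicate check can therefore be given for any level or difference, and the depth of each library is unknown. Whether the 3 lines were normalized together is not given in the sources used here, and differences between lines rest on the FPKM as deposited. The only test is the authors' own between zones of a line, given as a q value (a p-value adjusted for the number of genes), and "rose" and "fell" are used only of differences between zones with a q under 0.05 in the authors' deposited table.

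A gene was taken as a member when its log2(FPKM + 1), averaged over the 3 zones, was at least 3 higher in the TMO5 line than in the average of the SPT and PUB25 lines, with at least 5 FPKM in every TMO5 zone. Names that join several genes were not taken, and 8 genes of the TMO5 pathway (TMO5, AHP6, T5L1, LOG3, LOG4, ACL5, BUD2 and ATHB8) were left out by name. The rule gave 87 of 32619 gene names. Of the 8391 names with at least 5 FPKM in every TMO5 zone, 1.10% passed the same difference, 5 of the 8 genes left out by name among them. The excess over the SPT and PUB25 lines chose the members, so it is given as a description with no test. In sorted bulk samples, fewer cells of a type and less RNA per cell cannot be told apart.

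Xylem cells form the water-conducting vessels of the root. In the meristem the bHLH factor TMO5 acts with a partner to switch on cytokinin synthesis and cell divisions in the young vascular tissue, while class III HD-ZIP factors pattern the xylem axis and are restricted by the microRNAs miR165 and miR166. VND proteins, factors of the NAC family, later switch on the genes for the secondary wall and for the death of the vessel cell.

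The deposited gene tables do not give all members the same kind of value. In the files 606 of the names, 1.86%, stand at several rows with the same coordinates, and the tables of the 3 lines did not always carry the same row. Among the 87 members 41 names, or 47.1%, stand at several rows. In 36 of these no row matched the values of all 3 lines within 1%, and in 31 of the 36 the TMO5 table carried a row that neither other table carried. The rows of a chromosome run in separate blocks, and 99.7% of 26616 single-row nuclear genes lay in the block of their annotated strand. Some names, such as AT1G20720 and AT4G00114, had more than 1 row in a block. Whether reads of overlapping rows were assigned by strand is not stated, so reads of such rows cannot be told apart. When the row on the annotated strand was used in every line, 1 of the 36 names still met the rule, and when all rows of a name were summed, 5 did. Their median difference was 3.83 with the tables as deposited, 1.15 with the annotated strand and 1.71 with summed rows, which ranged between -0.11 and 5.38.

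AT2G40205, a gene of the ribosomal protein L41 family, had the largest difference of all members, 6.25, but 0.88 when its rows were summed. Its row in the TMO5 table held 1796, 1503 and 1337 FPKM in the Proximal, Medial and Distal zones, and the same row held 1447, 558 and 370.4 FPKM in the SPT line. The SPT table carried the other row, with 29.7, 13.3 and 5.53 FPKM. CYCB1;1, a mitotic cyclin, had a difference of 3.84 as deposited and of -0.05 with rows summed. PLT1, a PLETHORA factor of the stem cell niche, had 3.20 as deposited and 1.19 with rows summed. Its row in the TMO5 table stood at 126, 148 and 137 FPKM in that line and at 339, 42.1 and 3.76 FPKM in the SPT line, so the TMO5 zones were below SPT Proximal cells when the same row was read. HB17, a homeodomain gene, stayed above the threshold with summed rows, at 3.14, and stood at 2.41 on the annotated strand. The 36 names are accounted for here and are not used below. The other 51 members, 46 with a single row and 5 with the same row in every line, all met the rule when rows were summed, and 49 met it on the annotated strand. The exceptions were AT1G27580 and AT1G04150, whose values in all 3 lines are those of the row opposite the annotated strand.

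**Figure D1:**
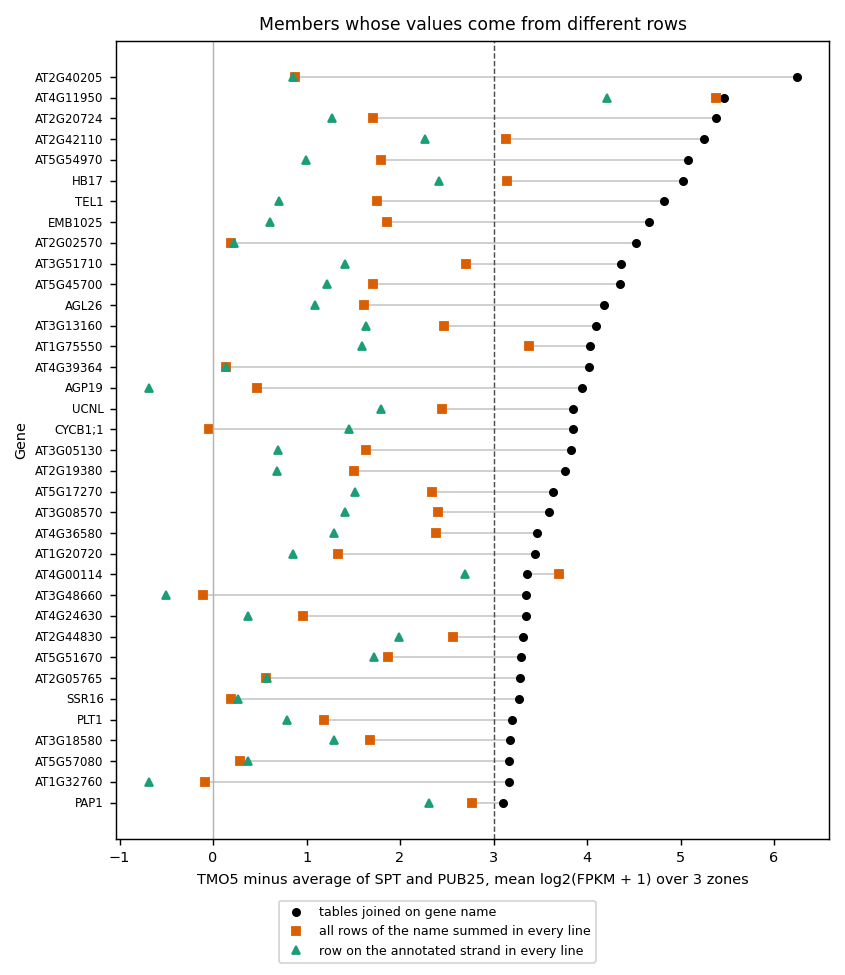
TMO5 minus the average of SPT and PUB25 in mean log2(FPKM + 1), on the horizontal axis, for the 36 members whose 3 lines take values from different rows, with the threshold of 3 as a dashed line. Circles use the tables joined on gene name, squares the summed rows and triangles the row on the annotated strand, and 5 squares and 1 triangle lie at or beyond 3.

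Marker genes were read against the label of the TMO5 line. TMO5 itself had 481, 354 and 240.0 FPKM in the Proximal, Medial and Distal zones of the TMO5 line, against at most 12.6 FPKM in the SPT line and 7.41 FPKM in the PUB25 line. Summed over 9 markers of endodermis and cortex the TMO5 zones had 11.1 to 14.5 FPKM, against 56.1 to 336 FPKM in the SPT zones and 24.98 to 44.6 FPKM in the PUB25 zones. Summed over 10 phloem markers the TMO5 zones had 10.3 to 18.8 FPKM, the SPT zones 20.0 to 102 FPKM and the PUB25 zones 9.24 to 13.2 FPKM, and the phloem regulator APL was listed at 0 in every TMO5 zone. CVP2 of the same list was 1.92 higher in the TMO5 line, the only one of the 10 above 0. The phloem sum was thus lower than in the SPT line and not lower than in the PUB25 line. As sums, pericycle and epidermis markers were not lower than in both other lines either. Summed over 4 pericycle markers the TMO5 zones had 6.93 to 44.1 FPKM, the SPT zones 3.01 to 32.8 FPKM and the PUB25 zones 1.25 to 1.52 FPKM. Summed over 7 markers of epidermis and root hairs the TMO5 zones had 118 to 157 FPKM, the SPT zones 111 to 142 FPKM and the PUB25 zones 134 to 210.01 FPKM. Of the TMO5 sum, CPC alone held 146, 119 and 97.0 FPKM in the Proximal, Medial and Distal zones. Of the 7 markers 4 were lower in the TMO5 line and 3 higher, with a median difference of -1.09. WER had 6.15 to 7.51 FPKM in the TMO5 zones, 28.6 to 57.1 FPKM in the SPT zones and 43.1 to 65.6 FPKM in the PUB25 zones. Root cap markers, 4 in number, summed to 12.8 to 66.7 FPKM in the TMO5 zones, 157 to 655 FPKM in the SPT zones and 359 to 569 FPKM in the PUB25 zones. Summed over 10 wounding and heat genes the TMO5 zones had 265 to 772 FPKM, the SPT zones 1946 to 4015 FPKM and the PUB25 zones 2292 to 3299 FPKM. None of these lists held a member. The part of cell purity and of handling in the enrichment was not tested.

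The 51 members had TMO5 differences between 3.001 and 5.25 on the log2 scale, with a median of 3.47, while all 8391 genes with at least 5 FPKM in every TMO5 zone had a median of 0.25. In 48 of the 51 the lowest TMO5 zone was above the highest zone of the SPT and PUB25 lines, as it was in 29.1% of the 8391 genes, a count that the rule itself favours. The exceptions were GRP9, CP2 and the small nucleolar RNA gene AT3G27865. The zone mean of a member had a median over genes of 47.1 FPKM in the TMO5 line, 3.76 FPKM in the SPT line and 3.65 FPKM in the PUB25 line, where the 8391 genes had medians of 17.7, 16.0 and 19.1 FPKM. Differences between zones of the SPT and PUB25 lines thus rest on low levels. The reference annotation, RefSeq TAIR10.1, held 49 of the 51, of which 46 are protein coding. Their annotated genes had a median length of 1866 bases, against 2556 bases for 8353 of the 8391 genes. Chromosomes 1 to 5 carried 7, 14, 12, 8 and 10 of them.

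**Figure D2:**
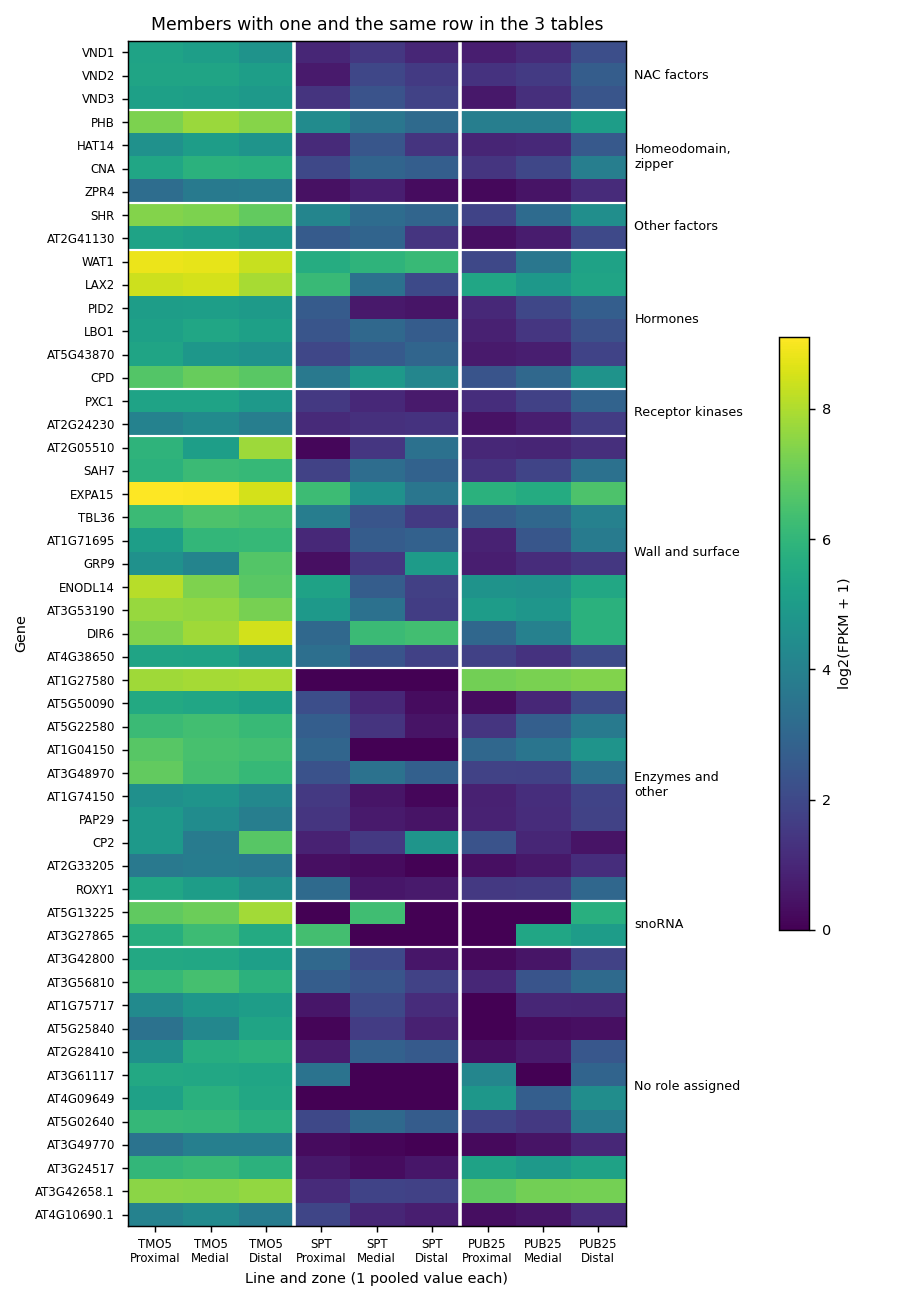
Level of the 51 members with the same row in the 3 tables, as log2(FPKM + 1) by colour, with 1 row per gene grouped by role and 1 column per line and zone. The 3 TMO5 columns at the left are the brightest for 48 of the genes, and AT1G27580, AT3G24517 and AT3G42658.1 are nearly as bright in the PUB25 columns.

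The average of the SPT and PUB25 lines hid 2 kinds of member. In 30 of the 51 the TMO5 mean was at least 3 above each line (0.751% of the 8391 genes were), and in 21 it was not. Among the 21, WAT1 stood 2.75 above the SPT line and 5.04 above the PUB25 line, and ENODL14 stood 4.19 above the SPT line and 2.51 above the PUB25 line. AT1G27580 takes its values from the row opposite the strand on which its F-box gene is annotated. That row had 221, 234 and 245 FPKM in the Proximal, Medial and Distal zones of the TMO5 line. It was listed at 0 in all SPT zones and had 142, 153 and 167 FPKM in the PUB25 zones. The annotated-strand row had at most 0.134 FPKM in the TMO5 zones and 0.208 FPKM in the PUB25 zones, and its difference was 0.07. AT3G42658.1, which the reference does not hold, had 181, 178 and 194 FPKM in the TMO5 zones, 1.17, 2.59 and 2.37 FPKM in the SPT zones and 116, 144 and 147 FPKM in the PUB25 zones. AT3G24517 and AT4G09649, of no stated function, were below 1 FPKM in every SPT zone, with 28.7 to 37.0 FPKM and 5.56 to 27.1 FPKM in the PUB25 zones. With the values as deposited, the TMO5 and PUB25 lines stood together for these 4 genes and the SPT line apart. None of the 4 changed between zones of any line in the authors' deposited table. Over the 51 members the SPT minus PUB25 difference of the zone means had a median of 0.04, against -0.34 for the 8391 genes. It was at least 1 in 7 members and at most -1 in 12.

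**Figure D3:**
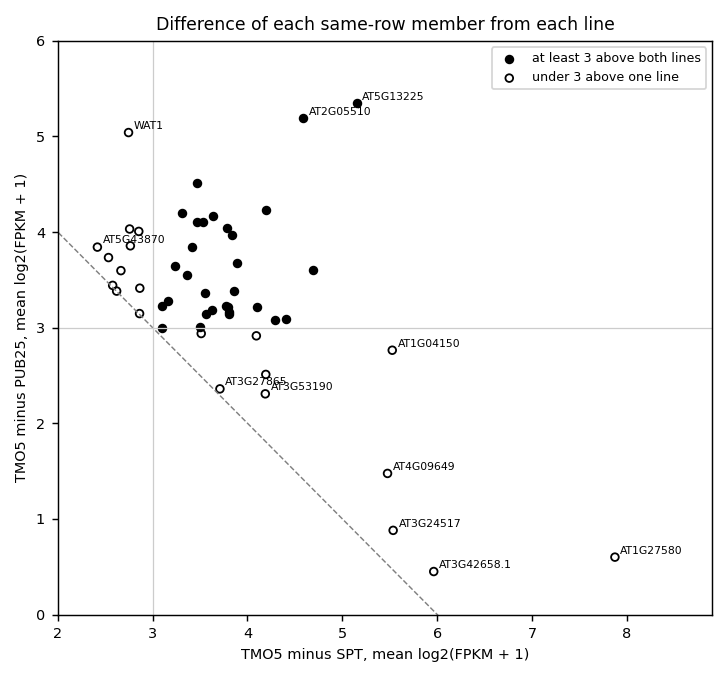
Each of the 51 members by its TMO5 minus SPT difference (horizontal) and its TMO5 minus PUB25 difference (vertical), both in mean log2(FPKM + 1). The dashed line is the rule, filled points are the 30 genes at least 3 above both lines, and AT1G27580, AT3G42658.1, AT3G24517 and AT4G09649 lie at the lower right, far above the SPT line and under 1.5 above the PUB25 line.

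Among the regulators were VND1, VND2 and VND3, NAC factors of vessel formation that act upstream of VND7. VND1 (AT2G18060, chr2:7847520-7851578 in the deposited TAIR10 coordinates) had 37.8, 33.5 and 24.8 FPKM in the Proximal, Medial and Distal zones of the TMO5 line, 0.957, 1.79 and 0.959 FPKM in the SPT line and 0.693, 1.14 and 3.53 FPKM in the PUB25 line. VND2 (AT4G36160, chr4:17110661-17119834) had 38.3, 38.5 and 33.4 FPKM in the TMO5 zones, 0.595, 2.80 and 1.91 FPKM in the SPT zones and 1.498, 1.94 and 5.45 FPKM in the PUB25 zones. VND3 (AT5G66300, chr5:26479793-26481334) had 35.3, 33.4 and 28.3 FPKM in the TMO5 zones, 1.56, 3.99 and 2.43 FPKM in the SPT zones and 0.506, 1.34 and 4.28 FPKM in the PUB25 zones. The 3 genes were alike in level in every TMO5 zone, far above all other samples, and their differences were 3.78, 3.62 and 3.44. None changed between TMO5 zones in the authors' deposited table. In the PUB25 line all 3 rose in Distal over Medial cells, with q values of 0.00709, 4.07e-04 and 7.67e-04 in the authors' deposited table, where 13.2% of the 8391 genes rose. Among SPT cells VND2 and VND3 rose in Medial over Proximal cells, with q values of 0.0160 and 0.0453 in that table, while VND1 had a q of 0.278 and 11.7% of the 8391 genes rose.

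The VND promoters are shown because these related genes were alike in level in every TMO5 zone and had at most 5.45 FPKM in the SPT and PUB25 zones. They are the 250 bases before each gene's start on its own strand, from the RefSeq TAIR10.1 genome and annotation, 5′ to 3′, with E-boxes in capitals. An E-box (CANNTG, the same on both strands) is the kind of motif that bHLH factors bind.
VND1: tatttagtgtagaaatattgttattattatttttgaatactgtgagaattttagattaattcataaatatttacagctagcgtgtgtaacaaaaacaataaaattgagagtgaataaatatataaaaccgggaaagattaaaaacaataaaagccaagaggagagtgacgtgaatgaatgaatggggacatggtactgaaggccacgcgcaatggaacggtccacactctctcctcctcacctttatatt
VND2: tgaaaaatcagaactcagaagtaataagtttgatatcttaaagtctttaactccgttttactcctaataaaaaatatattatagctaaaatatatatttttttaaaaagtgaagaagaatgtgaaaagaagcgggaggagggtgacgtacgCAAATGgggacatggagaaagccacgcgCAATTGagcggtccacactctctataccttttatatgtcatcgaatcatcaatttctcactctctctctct
VND3: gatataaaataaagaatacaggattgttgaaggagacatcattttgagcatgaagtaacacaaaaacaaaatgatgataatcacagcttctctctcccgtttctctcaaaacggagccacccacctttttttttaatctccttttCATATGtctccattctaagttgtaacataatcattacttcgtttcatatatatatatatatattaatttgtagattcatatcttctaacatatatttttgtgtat
They lie at chr2:7851607-7851856, chr4:17114142-17114391 and chr5:26481529-26481778, all on the minus strand, and hold 0, 2 and 1 E-boxes. The annotated VND2 start used here lies inside the wider deposited VND2 locus, which runs on past this window, so the VND2 values may include reads from beyond the annotated gene. The VND3 promoter also holds 2 copies of TGTCTC, the auxin response motif, counting both strands. Among the 46 coding members 63.0% of such promoters held an E-box, against 55.3% of the 27443 coding promoters of the genome, and 15.2% against 10.9% held TGTCTC. The G-box CACGTG, itself an E-box, was in 4.35% against 6.49%, the homeodomain-zipper motif ATNATTG in 26.1% against 26.6%, and AAAG, the Dof core, in 97.8% against 98.0%. These shares describe letters in the window and say nothing of binding.

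The other VND genes did not meet the rule. VND4 had 23.0, 18.4 and 29.0 FPKM in the TMO5 zones and VND5 19.4, 11.9 and 18.8 FPKM, and their differences of 2.67 and 2.61 were short of it. VND7, the switch for vessel walls, had 4.53, 1.12 and 17.3 FPKM in the TMO5 zones and 0.125, 12.0 and 5.13 FPKM in the SPT zones, a difference of 0.93. VND6 was below 0.4 FPKM in every TMO5 zone. Of the 17 VND and wall switch factors 3 were members, and of 20 genes for vessel wall synthesis and cell death none was, with a median difference of -0.27 and a range between -2.91 and 1.33. CESA4, a cellulose synthase of secondary walls, had 11.2, 1.80 and 35.2 FPKM in the TMO5 zones, 0.640, 28.2 and 18.1 FPKM in the SPT zones and 4.11, 3.78 and 15.3 FPKM in the PUB25 zones. The members held VND1, VND2 and VND3 and none of the wall genes measured beside them. The rule asks for at least 5 FPKM in every TMO5 zone, and genes such as CESA4 were below that in Medial cells. For these the filter alone settled the outcome, whatever their level in Distal cells. XCP1, which passed the filter with 8.77 FPKM in TMO5 Medial cells, had the largest difference of the 20 genes, 1.33.

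The class III HD-ZIP factors PHB and CNA were members. PHB (AT2G34710, chr2:14639321-14644278) had 158, 210.1 and 175 FPKM in the Proximal, Medial and Distal zones of the TMO5 line, 19.8, 11.0 and 7.90 FPKM in the SPT line and 13.7, 13.8 and 32.6 FPKM in the PUB25 line. CNA (AT1G52150, chr1:19409711-19414678) had 40.5, 55.0 and 52.7 FPKM in the TMO5 line, 2.94, 6.63 and 5.64 FPKM in the SPT line and 1.64, 2.88 and 13.8 FPKM in the PUB25 line. Both had their highest level in TMO5 Medial cells, without a change called between TMO5 zones. In the PUB25 line both rose in Distal over Proximal cells, each with a q of 4.07e-04 in the authors' deposited table, where 19.7% of the 8391 genes rose. Among SPT cells PHB fell in Distal over Proximal cells (q 3.59e-04) and CNA rose (q 0.0351) in that deposited table of the authors, beside 33.8% and 19.3% of the 8391 genes. The differences of the 5 family members from the meristem lines were 3.50 for PHB, 3.16 for CNA, 2.99 for ATHB8, 1.73 for PHV and 1.02 for REV.

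All 5 genes carry the site for miR165 and miR166 in their coding sequence. The mature microRNAs, from the RefSeq TAIR10.1 annotation, are given 5′ to 3′ with the seed (bases 2 to 8) in capitals, and each site is the stretch of spliced coding DNA with the fewest mismatches to miR166a, with the bases opposite the seed in capitals.
MIR165a: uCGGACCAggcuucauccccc
MIR166a: uCGGACCAggcuucauucccc
PHB: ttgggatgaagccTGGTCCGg
CNA: ctggaatgaagccTGGTCCGg
ATHB8: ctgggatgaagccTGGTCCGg
PHV: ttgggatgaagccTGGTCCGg
REV: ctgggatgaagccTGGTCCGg
The sites shared the stretch opposite the seed, with 0 mismatches there, and had 3 or 4 mismatches over 21 bases, where the next best place in each coding sequence had 8 or 9. They lie at coding bases 590 to 610 of PHB and 551 to 571 of CNA, and in the genome each is split by an intron, at chr2:14642530-14642666 and chr1:19412976-19413085 on the minus strand. PHB and PHV had an identical site and differed in their TMO5 excess by the values above, as did ATHB8 and REV. The precursor of miR165a was listed at 0 FPKM in all 9 groups. That of miR166a stood at 0, 0 and 8.79 FPKM in the TMO5 zones, at 0 in all SPT zones and at 11.8, 0 and 7.48 FPKM in the PUB25 zones. That of miR166b was listed at 0 in all TMO5 zones and stood at 0, 45.2 and 0 FPKM in the SPT zones and at 12.7, 13.7 and 53.6 FPKM in the PUB25 zones. These libraries were not made for small RNA, and mature microRNAs were not measured.

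**Figure D4:**
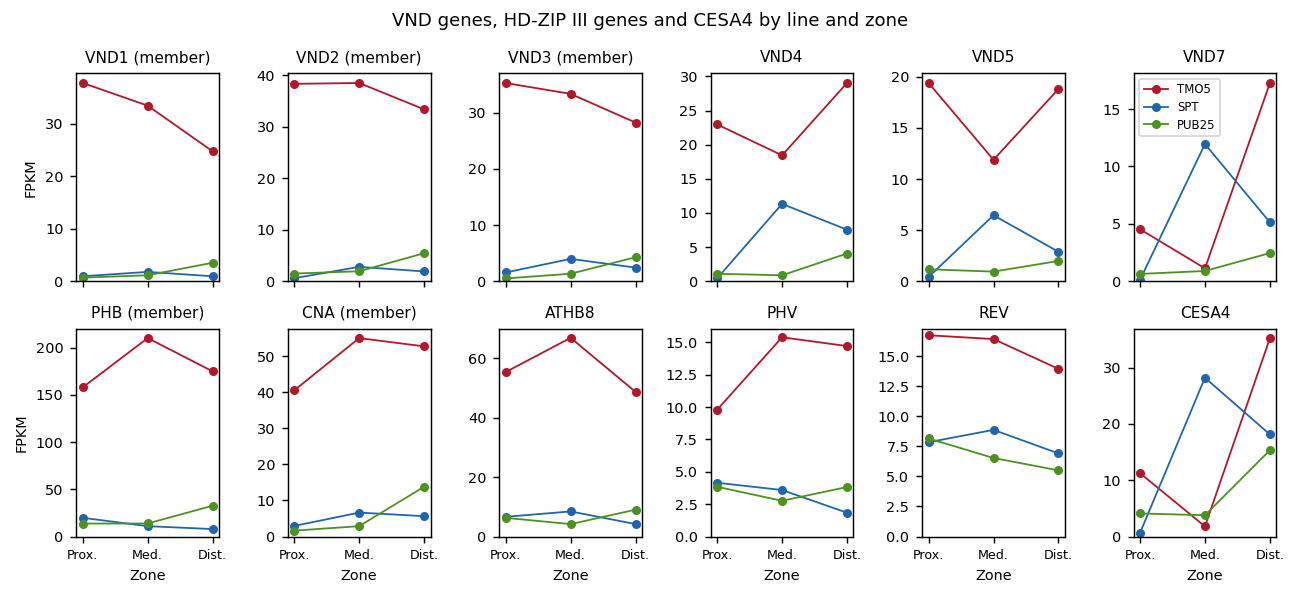
FPKM in the Proximal, Medial and Distal zones of the TMO5 (red), SPT (blue) and PUB25 (green) lines for 6 VND genes, the 5 class III HD-ZIP genes and CESA4, with 1 pooled value per point and a separate vertical axis per gene. For VND1, VND2, VND3, PHB and CNA all TMO5 points lie above all others, while for VND7 and CESA4 the lines cross.

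A LITTLE ZIPPER gene and a class II HD-ZIP gene were enriched beside them. ZPR4, of a family of small proteins that bind and inhibit class III HD-ZIP factors, had 8.44, 12.0 and 13.3 FPKM in the TMO5 zones, 0.314, 0.702 and 0.246 FPKM in the SPT zones and 0.131, 0.379 and 1.197 FPKM in the PUB25 zones. It is a non-coding RNA in the reference annotation. HAT14 had 23.0, 32.9 and 25.1 FPKM in the TMO5 zones, 1.10, 4.45 and 1.58 FPKM in the SPT zones and 0.917, 1.08 and 4.79 FPKM in the PUB25 zones. It was highest in Medial cells of the SPT line, above Proximal (q 0.00414) and Distal cells (q 0.00991) in the authors' deposited table.

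SHR (SHORT ROOT), a GRAS factor made in the stele that moves outward to specify the endodermis, had 171, 159 and 120.0 FPKM in the Proximal, Medial and Distal zones of the TMO5 line. It had 16.7, 8.34 and 6.73 FPKM in the SPT zones and 2.58, 8.12 and 21.5 FPKM in the PUB25 zones, an order of zones opposite in these lines. SCR, its partner in the endodermis, was below 0.5 FPKM in every TMO5 zone and had 18.3, 7.42 and 5.58 FPKM in the SPT zones. The bHLH gene AT2G41130 had 37.5, 33.7 and 26.9 FPKM in the TMO5 zones, 5.04, 6.58 and 1.64 FPKM in the SPT zones and 0.298, 0.622 and 3.06 FPKM in the PUB25 zones. Of 26 measured genes of the TMO5 pathway and early xylem 20 were higher in the TMO5 line and 6 lower, and 8 were at least 3 higher, the members PHB, CNA and AT2G41130 and 5 genes left out by name. That list was put together around the TMO5 pathway with earlier results of these values known, so its direction is no independent evidence.

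Genes of hormone transport and synthesis formed a further group. WAT1, a tonoplast auxin transporter needed for thick secondary walls, was the second highest member, with 458, 431 and 319.9 FPKM in the TMO5 zones, 48.1, 60.0 and 69.3 FPKM in the SPT zones and 2.89, 11.2 and 36.7 FPKM in the PUB25 zones. LAX2, an auxin influx carrier of vascular tissue, had 337, 362 and 241 FPKM in the TMO5 zones, 70.6, 9.63 and 3.11 FPKM in the SPT zones and 41.2, 27.7 and 38.6 FPKM in the PUB25 zones. PID2, a kinase related to PINOID, a regulator of auxin transport, had 30.3 to 33.7 FPKM in the TMO5 zones, 0.432 to 5.04 FPKM in the SPT zones and 1.08 to 5.58 FPKM in the PUB25 zones. The SPT line thus held these auxin genes unequally, with WAT1 at like levels in all zones and LAX2 falling in Distal over Proximal cells with a q of 6.68e-04 in the authors' deposited table.

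AT5G43870, annotated as an auxin canalization protein, had 38.5, 27.1 and 24.0 FPKM in the TMO5 zones and was 2.42 above the SPT line. CPD, a brassinosteroid synthesis enzyme, had 100.03, 126 and 109 FPKM in the TMO5 zones, 11.7, 28.3 and 16.9 FPKM in the SPT zones and 4.19, 7.36 and 24.5 FPKM in the PUB25 zones. LBO1, an oxidoreductase of strigolactone synthesis, had 35.2, 40.6 and 35.0 FPKM in the TMO5 zones and at most 7.42 FPKM elsewhere. Both stood nearer to the SPT line, by differences of 2.58 and 2.54, than to the PUB25 line, at 3.44 and 3.73. Of the 6 hormone genes none changed between TMO5 zones, and 5 rose in Distal over Medial cells of the PUB25 line in the authors' deposited table, all but LAX2. Of the 8391 genes 13.2% rose in that PUB25 comparison, and at most 2.32% were called in a direction in any TMO5 comparison.

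The receptor kinase PXC1, correlated with the cambium receptor PXY and linked to secondary wall formation, had 37.8, 37.8 and 29.5 FPKM in the TMO5 zones, 1.82, 1.06 and 0.574 FPKM in the SPT zones and 1.28, 2.35 and 6.505 FPKM in the PUB25 zones. AT2G24230, a leucine-rich repeat receptor kinase, had 15.4, 19.3 and 13.7 FPKM in the TMO5 zones and at most 2.08 FPKM elsewhere. PXY itself was low in every group, with 0.809 to 1.02 FPKM in the TMO5 zones. Both member kinases rose in Distal over Medial cells of the PUB25 line, each with a q of 4.07e-04 in the authors' deposited table. Of the 8391 genes 13.2% rose there.

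Proteins of the wall and the cell surface made up 10 members. EXPA15, an expansin that loosens walls, was the most abundant member, with 547, 531 and 368 FPKM in the Proximal, Medial and Distal zones of the TMO5 line, 74.8, 23.2 and 10.8 FPKM in the SPT line and 54.9, 47.3 and 92.3 FPKM in the PUB25 line. DIR6, a dirigent protein that directs the coupling of phenolics to lignans, had 166, 219.7 and 353 FPKM in the TMO5 zones, 7.38, 73.5 and 80.9 FPKM in the SPT zones and 7.19, 15.1 and 55.2 FPKM in the PUB25 zones. It rose in Distal over Proximal cells of all 3 lines in the authors' deposited table. AT1G71695, annotated as peroxidase 12, had 33.3, 64.8 and 66.6 FPKM in the TMO5 zones and also rose in Distal over Proximal cells of every line, at a q of 0.0497 in the TMO5 line, just under the threshold, in the authors' deposited table. ENODL14, an early nodulin-like protein of the plasma membrane, had 276, 162 and 109 FPKM in the TMO5 zones, 36.6, 5.501 and 2.32 FPKM in the SPT zones and 24.5, 23.2 and 42.5 FPKM in the PUB25 zones. Of all 87 members it alone fell in Distal over Proximal cells of the TMO5 line, with a q of 0.00777 in the authors' deposited table.

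The glycine-rich protein genes GRP9 and AT2G05510 lie 20043 bases apart on chromosome 2, and as relatives they may share reads. GRP9 had 23.6, 16.4 and 101 FPKM in the Proximal, Medial and Distal zones of the TMO5 line, 0.303, 1.77 and 31.1 FPKM in the SPT line and 0.716, 1.23 and 1.76 FPKM in the PUB25 line. AT2G05510 had 60.0, 33.0 and 216 FPKM in the TMO5 zones, 0.130, 1.74 and 9.42 FPKM in the SPT zones and 0.931 to 1.36 FPKM in the PUB25 zones. Both rose in Distal over Medial cells of the TMO5 and the SPT lines in the authors' deposited table, beside 2.32% and 8.29% of the 8391 genes. Both stayed under 2 FPKM in the PUB25 line. Among the others, TBL36, of a family that acetylates wall polymers, had 72.1, 94.3 and 84.7 FPKM in the TMO5 zones, and AT3G53190, annotated as a pectate lyase, had 206, 195 and 149.7 FPKM. SAH7 had 56.0, 73.0 and 66.9 FPKM and the glycosyl hydrolase gene AT4G38650, the last gene inside the threshold, 38.4, 37.5 and 25.4 FPKM.

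CP2, the papain-type cysteine protease gene AT4G11320, had 28.4, 12.7 and 105 FPKM in the Proximal, Medial and Distal zones of the TMO5 line, 0.819, 1.82 and 25.5 FPKM in the SPT line and 4.05, 0.983 and 0.408 FPKM in the PUB25 line. It thus shared with GRP9 and AT2G05510 the low in Medial cells of the TMO5 line and the high in Distal cells of the TMO5 and SPT lines. XCP2, a vessel protease that is no member, had the same order of zones in the TMO5 line, at 167, 7.54 and 405 FPKM. ROXY1, a glutaredoxin, had 40.4, 32.2 and 21.4 FPKM in the TMO5 zones, and PAP29, a purple acid phosphatase, 29.3, 20.6 and 13.9 FPKM. The remaining annotated genes of this kind include AT3G48970, of a heavy metal transport family, at 120.3, 83.1 and 67.2 FPKM in the TMO5 zones, and AT5G22580, a stress-responsive A/B barrel protein, at 73.2, 79.8 and 68.8 FPKM. AT2G33205, a serinc-domain protein, was among the lowest members, at 11.7, 13.2 and 12.0 FPKM in the TMO5 zones. AT5G50090, annotated as a D-ribose-binding protein, had 45.1, 40.8 and 35.3 FPKM in the TMO5 zones, 3.51, 1.04 and 0.229 FPKM in the SPT zones and 0.220, 1.04 and 3.20 FPKM in the PUB25 zones. AT1G04150 takes its values from the row opposite the strand on which its gene, of a C2 calcium and lipid-binding family, is annotated. That row had 107, 87.4 and 80.3 FPKM in the TMO5 zones and was listed at 0 in Medial and Distal cells of the SPT line. The annotated-strand row had 6.61, 5.21 and 4.17 FPKM in the TMO5 zones, and its difference was 1.95. In the SPT zones that annotated-strand row had 1.13, 0.124 and 0.152 FPKM. These 2 genes show the zone orders met in other members, a low in SPT Distal cells and a high in PUB25 Distal cells, without a call between those zones and Proximal cells in the authors' deposited table.

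The member with the largest difference among the 51, 5.25, was the small nucleolar RNA gene AT5G13225. It had 116, 131 and 230.2 FPKM in the TMO5 zones, was listed at 0 in SPT Proximal and Distal cells and in PUB25 Proximal and Medial cells, and had 79.1 FPKM in SPT Medial and 52.4 FPKM in PUB25 Distal cells. AT3G27865, the other small nucleolar RNA gene, had 51.2, 75.2 and 46.2 FPKM in the TMO5 zones, 82.7, 0 and 0 FPKM in the SPT zones and 0, 41.1 and 32.0 FPKM in the PUB25 zones. At their short lengths a few fragments give a high FPKM, and no zone difference of either was called. In all 9 members were listed at 0 in at least 1 SPT or PUB25 group.

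Within the TMO5 line few members were called between zones. In the Distal comparisons their share was above that of the 8391 genes, but it rests on few genes. The highest zone was 1.42 times the lowest in the median member and 1.29 times in the median of the 8391 genes. Distal over Proximal, 5 of the 51 rose and 1 fell in the authors' deposited table, beside 1.55% and 0.453% of the 8391 genes. The rises were GRP9 by 2.06, AT5G25840 by 1.88, CP2 by 1.85, DIR6 by 1.09 and AT1G71695 by 0.98 on the log2(FPKM + 1) scale. Distal over Medial, 3 rose and 0 fell (2.32% and 0% of the 8391). The 3 were GRP9, AT2G05510 and CP2, of which GRP9 and AT2G05510 may share reads. Medial over Proximal none of the 51 was called (0.0477% rose and 0.119% fell). The TMO5 line had 2 libraries per zone and its smallest q was 0.00777, against 3.59e-04 in the SPT line and 4.07e-04 in the PUB25 line, so few calls there do not show equal levels.

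In the PUB25 line most calls of the members were rises in Distal cells. Distal over Proximal, 31 of the 51 rose and 0 fell in the authors' deposited table, beside 19.7% and 14.2% of the 8391 genes. The members' median difference was 1.37, against 0.04 in the 8391 genes, and 46 of 51 were above 0. Distal over Medial, 34 rose and 0 fell (13.2% and 7.08% of the 8391), and Medial over Proximal, 11 rose and CP2 fell (10.7% and 10.8%). The highest PUB25 value of 44 members was in Distal cells, as it was in 42.3% of the 8391 genes. WAT1 rose most among the called members, by 3.28, followed by AT1G71695 by 2.93, DIR6 by 2.78 and SHR by 2.65. Other lists rose in the same zone, 16 of 20 genes for vessel wall and cell death and 13 of 26 genes of the TMO5 pathway and early xylem, while 3 of the 26 fell. The summed wall and cell death genes stood at 98.0, 268 and 1047 FPKM in the Proximal, Medial and Distal zones of the PUB25 line. Most of that Distal sum came from the cell death genes MC9, RNS3 and BFN1, at 337, 320.3 and 104 FPKM. In the TMO5 zones MC9, RNS3 and BFN1 had at most 11.1, 9.84 and 9.27 FPKM. The wall gene CESA4 had 4.11, 3.78 and 15.3 FPKM in the PUB25 zones. Of the epidermis markers 6 of 7 rose too. The share of xylem cells in each zone was not measured, and its part in these differences was not tested.

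In the SPT line calls of the members went both ways, as did those of the 8391 genes. Distal over Proximal, 6 of the 51 rose and 14 fell in the authors' deposited table, beside 19.3% and 33.8% of the 8391 genes. The members' median difference was -0.04, against -0.28 in the 8391 genes. The rises were CP2 by 3.87, DIR6 by 3.29, AT2G28410 by 1.85, AT1G71695 by 1.78, AT5G43870 by 1.03 and CNA by 0.75. LAX2 fell by 4.12, ENODL14 by 3.50 and EXPA15 by 2.68. Medial over Proximal, 10 rose and 12 fell (11.7% and 26.3% of the 8391), and Distal over Medial, 3 rose and 4 fell (8.29% and 14.4%). The highest SPT value was in Proximal cells for 24 members, in Medial cells for 17 and in Distal cells for 8, with 2 members listed at 0 throughout. In the same comparison of Distal with Proximal cells 18 of 20 vessel wall and cell death genes rose and 0 fell, while of the TMO5 pathway and early xylem list 5 rose and 12 fell.

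Between the meristem lines 11 of the 51 members, 21.6%, were called in opposite directions in Distal over Proximal cells, down in the SPT line and up in the PUB25 line in the authors' deposited table, beside 8.93% of the 8391 genes called in opposite directions of either kind. They were SHR, PHB, PXC1, EXPA15, TBL36, PID2, AT2G41130, ENODL14, ROXY1 and the genes AT3G42800 and AT3G56810 of no stated function. The members that rose in both lines were DIR6, AT1G71695, CNA and AT5G43870, 4 of the 15 called in both. The authors' deposited table of each line gives q values between zones of that line, and the difference between lines was not tested.

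**Figure D5:**
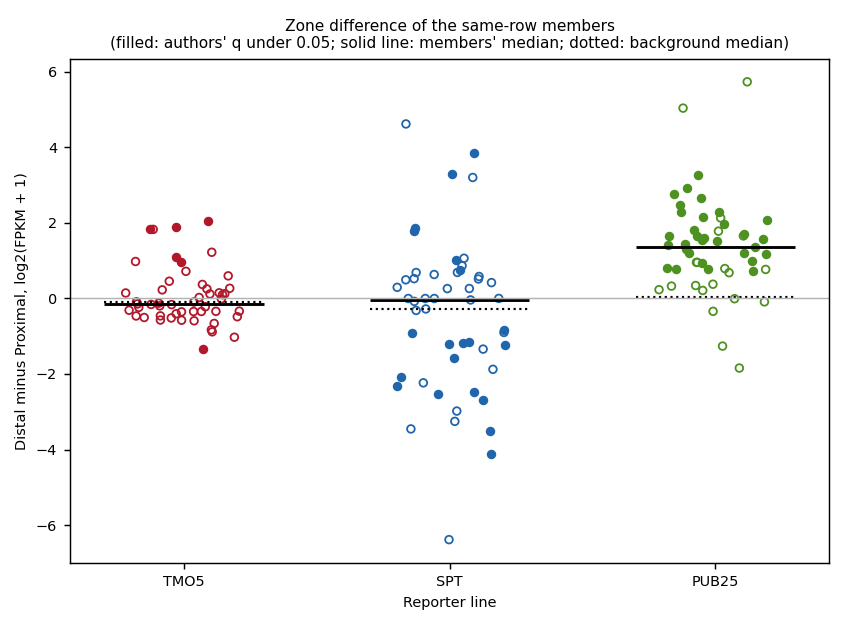
Distal minus Proximal difference in log2(FPKM + 1) of each of the 51 members in the TMO5, SPT and PUB25 lines, with filled points for a q under 0.05 in the authors' deposited table, a solid line at the members' median and a dotted line at the median of the 8391 genes. The medians are -0.14, -0.04 and 1.37, and the SPT points spread on both sides of 0.

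The members nearest the threshold were CPD at 3.01, AT2G24230 at 3.005 and AT4G38650 at 3.001, with ZPR4 at 3.05 and AT3G27865 at 3.03 before them. Just outside were AT1G19960 at 2.97, AT1G53542 at 2.96, AT1G28400 at 2.95, the beta-expansin EXPB1 at 2.95 and AHL18, whose lines take different rows, at 2.93. EXPB1 had 176, 216 and 244 FPKM in the TMO5 zones, 9.79, 25.2 and 38.8 FPKM in the SPT zones and 7.46, 37.3 and 113 FPKM in the PUB25 zones, so its levels were like those of members on the other side of the line.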

How the data were processed

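RNA of sorted protoplasts was sequenced in 24 libraries of 3 reporter lines, and the RNA was extracted with a column kit and libraries were made with a low-input kit, per the labels' protocols. The submitters' processing notes name Bowtie, TopHat, Cufflinks and Cuffdiff and the build TAIR10, without versions, roles or order. The authors deposited FPKM, 1 pooled value per gene, line and zone, with a log2 fold and a q-value for each pair of zones within a line. How libraries were pooled and whether reads were assigned by strand is not given in the sources used here. No counts were given, so the depth is unknown and no test per library or across lines could be run.

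The 3 tables were joined on gene name, FPKM were taken to log2(FPKM + 1) and averaged over zones, and every gene name was matched to its rows within 1%. The log2 differences printed here were computed from the deposited FPKM and are not the authors' folds. The members, lists, roles and comparisons were chosen with earlier results of these data known, and the roles after their values were seen. Genes were named when they belonged to the 25 largest differences, were called between TMO5 zones, stood in a list or a family with 3 members, or lay next to the threshold. Names whose lines take different rows are plotted in full and named in part. Others are named to describe a group and were chosen after their values were seen. Alternatives were a pseudocount of 0.1, quantile normalization, median centring, other minimums and thresholds, zones left out and, added after the data were seen, the same row, the annotated-strand row or summed rows in every line. The selection was tested on simulated data. Promoters and microRNA sites were read from the RefSeq TAIR10.1 genome. Tools were pandas 2.3.3, numpy 2.4.6, matplotlib 3.10.9 and biopython 1.88.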

Additional observations from a re-analysis of the deposited data

Results flagged for a closer look

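For 11 members the Distal over Proximal difference had opposite signs in the SPT and PUB25 lines, with a q under 0.05 in each line in the authors' deposited table. The SPT difference minus the PUB25 difference, in log2(FPKM + 1), was -4.27 for ENODL14, -4.10 for AT3G42800, -4.00 for ROXY1, -3.84 for SHR, -3.74 for PID2, -3.63 for TBL36 and -3.42 for EXPA15. It was -3.07 for AT3G56810, -2.84 for AT2G41130, -2.56 for PXC1 and -2.42 for PHB. Every one of the 11 stood lower in Distal cells than in Proximal ones in the SPT line, and higher in the PUB25 line. The difference between the lines was not tested, since there is 1 pooled value per line and zone. In the TMO5 line 9 of the 11 also stood lower in Distal cells, with differences between -1.33 for ENODL14, the one of them with a q under 0.05 there in the authors' deposited table, and -0.09 for PID2, while PHB and TBL36 stood at 0.15 and 0.23.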

How the results depend on the processing

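No paired analysis was possible because the files hold 1 pooled value per line and zone, and for the same reason leaving out single replicates was not run. Of 91 recomputed values 57 stayed within 1.5 times a count, or 0.1 of a median, 33 moved further and 1 changed sign. The 87 names of the rule became 138 with a pseudocount of 0.1, 260 with a difference of 2 and 21 with a difference of 4. They became 46 without names at several loci and 51 with the same row in every line. The annotated-strand row gave 50 and summed rows 57, of which 0 and 1 were no members. Quantile normalization gave 118 names and median centring 130, both within 1.5 times the 87. Over all 87, calls between TMO5 zones numbered 0 (Medial over Proximal), 3 (Distal over Medial) and 6 (Distal over Proximal), and a 2-fold difference with no test gave 3, 7 and 14. Calls in the SPT line numbered 42 (Medial over Proximal), 12 (Distal over Medial) and 40 (Distal over Proximal) over all 87. With the same row in every line they numbered 22, 7 and 20 and with a single locus 21, 7 and 20, since fewer genes were counted, and a q under 0.01 gave 23 for Medial over Proximal. With the same row in every line the median differences were 0.0852 in TMO5 Medial over Proximal, 0.00 and -0.0384 in SPT Medial and Distal over Proximal, and 0.295, 1.37 and 1.04 in PUB25 Medial over Proximal, Distal over Proximal and Distal over Medial. With all 87 these 6 medians were -0.04, -0.31, -0.64, 0.14, 0.77 and 0.74. A pseudocount of 0.1 moved the SPT medians to -0.58 (Medial over Proximal), -0.69 (Distal over Medial) and -1.14 (Distal over Proximal), and the PUB25 medians to 0.96 (Distal over Medial) and 1.19 (Distal over Proximal). Centring moved the TMO5 medians to -0.34 (Distal over Medial) and -0.31 (Distal over Proximal), and quantile normalization moved TMO5 Distal over Proximal to -0.0874 and PUB25 Distal over Proximal to 0.64. The median SPT minus PUB25 difference of the 87 was -0.21, -0.10 with centring and 0.0373, of opposite sign, with the same row in every line. For the 51 members the PUB25 Distal over Proximal median was 1.37 as deposited, 1.29 with quantile normalization and 1.40 with centring, which itself moved the median of the 8391 genes in the TMO5 line to -0.22, against -0.10 as deposited. The causes of the other moves were not tested. Depth is unknown, so no detection limit can be given for genes listed at 0.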

Other observations

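Several members with no stated function were also enriched. AT5G25840 had 9.89, 17.3 and 39.2 FPKM in the Proximal, Medial and Distal zones of the TMO5 line, against at most 2.08 FPKM in the SPT line and 0.2996 FPKM in the PUB25 line. AT2G28410 had 22.8, 49.4 and 54.7 FPKM in the TMO5 zones, with 0.636, 6.03 and 4.92 FPKM in the SPT zones and 0.250, 0.563 and 4.49 FPKM in the PUB25 zones. AT3G56810 had 67.3, 84.8 and 57.0 FPKM in the TMO5 zones, and AT5G02640 had 66.3, 64.2 and 52.2 FPKM there. AT3G42800 had 43.5, 43.0 and 33.8 FPKM in the TMO5 zones, 7.52, 3.02 and 0.467 FPKM in the SPT zones and 0.175, 0.415 and 2.47 FPKM in the PUB25 zones. AT1G75717 had 19.5, 27.0 and 32.8 FPKM in the TMO5 zones, AT3G49770 had 9.97, 14.1 and 14.1 FPKM and AT4G10690.1 had 15.4, 19.5 and 13.1 FPKM. The kelch motif gene AT1G74150 had 22.9, 25.4 and 17.98 FPKM there, against at most 1.86 FPKM in the SPT zones and 2.57 FPKM in the PUB25 zones. AT3G61117, an annotated gene of short length, had 43.8, 43.4 and 40.1 FPKM in the TMO5 zones and was listed at 0 in 3 of the 6 SPT and PUB25 groups.

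Of the names that stand at several rows, AT4G11950, annotated as a putative transmembrane protein, met the rule with the annotated-strand row (4.21) and with summed rows (5.38), close to its 5.47 as deposited. AT2G42110, HB17, AT1G75550 and AT4G00114 met it with summed rows at 3.13, 3.14, 3.38 and 3.70 and not with the annotated-strand row, where they stood at 2.27, 2.41, 1.59 and 2.70. AGP19, an arabinogalactan protein gene, stood at 3.94 as deposited and at -0.69 on the annotated strand.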
